A study of Mus musculus with 6 samples.

Results

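The 29 genes described here make the enzymes that build cholesterol, the SREBP machinery that senses it and several proteins that control its uptake or move it inside the cell. They were taken by gene symbol from the 16123 genes of the deposited expression table of mouse liver, in which all 29 had a row. The libraries came from 3 mice of an exercise group and 3 mice of a sedentary group, to ask how moderate running changes liver metabolism. Exercise mice ran 22 km each, within a training period of 6 weeks, and their livers were taken 24 h after the last session. Sedentary mice had no treadmill training, and the time at which their livers were taken is not stated. The design text calls the animals healthy adults. The labels used here do not state strain, sex or feeding state. All mice were perfused with phosphate buffered saline before dissection, per the labels' protocols.

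Cholesterol is made from acetyl-CoA in the cytosol and the endoplasmic reticulum. Acetyl units become mevalonate, mevalonate becomes isoprenoid diphosphates, these are joined into squalene, and squalene is closed into lanosterol, which a chain of enzymes trims to cholesterol. The liver makes much of the body's cholesterol and also takes it up from lipoproteins. The transcription factor SREBP-2, encoded by Srebf2, switches on most genes of cholesterol synthesis when sterols are low. When sterols are plentiful, the INSIG proteins hold SREBP and its escort SCAP in the endoplasmic reticulum and the genes are switched off.

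Promoters of many genes of cholesterol synthesis are known to bind SREBP at sterol regulatory elements, together with NF-Y at CCAAT boxes and SP1 at GC boxes. RefSeq promoter windows, running from 250 bases before to 50 bases after a gene's start in GRCm38.p6, were at hand for 24 of the 29 genes. The letters TCACNCCAC, a form of the sterol regulatory element, were searched on both strands and stood in the Hmgcs1 window alone of the 24 genes. They were in 1.24% of all 32851 windows, and in a window of 1.51% of the 8252 tested genes that had one. Its last 8 letters, CACNCCAC, which every TCACNCCAC contains, stood in the windows of Hmgcs1, Acat2 and Insig1, in 6.24% of all windows and in 7.65% of tested genes. These windows are shown because their genes were lower in exercise, as described further on, and because they hold CACNCCAC. The Acat2 and Insig1 windows do not hold TCACNCCAC. The Hmgcs1 window lies at chr13:119690101-119690400 on the plus strand, the Acat2 window at chr17:12960676-12960975 on the minus strand and the Insig1 window at chr5:28071162-28071461 on the plus strand. Capitals mark CACNCCAC or its reverse complement, and each sequence reads 5′ to 3′ along its gene.
Hmgcs1: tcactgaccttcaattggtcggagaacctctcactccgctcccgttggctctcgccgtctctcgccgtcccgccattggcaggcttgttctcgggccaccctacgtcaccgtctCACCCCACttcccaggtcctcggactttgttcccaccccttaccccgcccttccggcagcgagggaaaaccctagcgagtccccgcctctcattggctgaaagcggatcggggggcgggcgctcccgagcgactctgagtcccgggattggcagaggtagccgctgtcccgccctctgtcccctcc
Acat2: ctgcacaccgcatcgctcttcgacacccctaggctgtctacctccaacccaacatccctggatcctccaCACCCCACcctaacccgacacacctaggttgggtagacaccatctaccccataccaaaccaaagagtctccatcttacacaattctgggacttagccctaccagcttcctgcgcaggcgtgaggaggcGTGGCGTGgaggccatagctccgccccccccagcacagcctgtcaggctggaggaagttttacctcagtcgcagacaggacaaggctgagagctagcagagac
Insig1: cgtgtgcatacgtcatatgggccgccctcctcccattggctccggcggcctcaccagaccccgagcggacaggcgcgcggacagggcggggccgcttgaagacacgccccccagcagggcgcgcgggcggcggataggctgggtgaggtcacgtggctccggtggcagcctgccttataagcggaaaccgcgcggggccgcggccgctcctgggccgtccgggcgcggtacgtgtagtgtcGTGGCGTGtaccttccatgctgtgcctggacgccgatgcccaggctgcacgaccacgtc

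The Hmgcs1 match to CACNCCAC begins 136 bases before the start. The matches of Acat2 begin 181 and 53 bases before it, the nearer one on the opposite strand. The Insig1 match, also on the opposite strand, begins 9 bases before the start. The letters CCAAT, searched on both strands, stood in the windows of 22 of the 24 genes and in 37.4% of all windows. By gene, 43.2% of the tested genes held it. CCAAT was in 14 of the 16 genes called lower in exercise and in all 8 of the others. The GC box letters GGGCGG stood in the windows of 22 of the 24 genes, against 68.5% of the tested genes. A match describes these letters and not a bound site.

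Messenger RNA was read at a similar depth in every library, with 17941303 to 18067298 counts in the exercise libraries and 18164094 to 18371949 counts in the sedentary libraries. Counts were compared with edgeR's quasi-likelihood test after TMM scaling, and p-values were adjusted over the 10266 genes whose mean FPKM reached 1. FPKM is a read level scaled to transcript length and library size, and a gene is said to have risen or fallen where its adjusted p was under 0.05. Libraries of 1 group were close to each other. A chi-square of counts, averaged over genes, came to 29.5 to 32.6 for pairs across groups and 1.38 to 1.55 for pairs of the same group. A value near 1 is what counting noise gives. No label says whether the 3 libraries of a group were prepared separately, so the p-values measure only the spread between these libraries, which may be technical. Hepatocyte markers were abundant in both groups, with 10 genes summing to 100470 to 100820 FPKM in exercise and 95854 to 97107 FPKM in sedentary libraries. Of these 10 genes, 5 rose and 3 fell, where 19.1% of all tested genes rose and 19.0% fell. Kupffer cell and macrophage markers summed to 339 to 344 FPKM in exercise and 397 to 409 FPKM in sedentary libraries, with 10 of 12 lower and none higher. Pancreatic acinar genes summed to 8.17 to 8.68 FPKM in exercise and 18.5 to 19.8 FPKM in sedentary libraries, and 9 of the 11 were listed at 0 in every exercise library. Cela1 made up most of the exercise sum, at a mean of 7.89 FPKM in exercise and 10.9 FPKM in sedentary libraries. Endothelial markers had 4 of 10 higher, stellate markers 4 of 8 tested higher and 1 lower, and the cholangiocyte sum was 33.2 to 34.9 FPKM in exercise and 63.3 to 65.8 FPKM in sedentary libraries. Spp1 made up most of that sum, at 30.5 FPKM in exercise and 60.7 FPKM in sedentary libraries, and the other 5 cholangiocyte markers each averaged under 1.5 FPKM and were too low to test or did not pass. Neutrophil sums overlapped between the groups, adipocyte sums stayed under 16 FPKM and skeletal muscle sums under 1 FPKM. The part of these cell types in the results below was not tested. In bulk liver, fewer cells of a type and less RNA per cell cannot be told apart.

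Genes of cholesterol synthesis were lower in the livers of the exercise mice at nearly every step. All 29 genes passed the filter on low values. Of these, 20 fell, 2 rose and 7 did not pass the test (edgeR adjusted p under 0.05), where 19.0% of all tested genes fell and 19.1% rose. The median log2 fold change was −0.29, against −0.00062 over all tested genes. Of the 20 synthesis enzymes alone, 16 fell, 1 rose and 3 did not pass. The split depended on the scaling. Without TMM 20 of the 29 genes were called lower and 6 higher, against 11.7% and 34.4% of all tested genes, and by limma on log2(TPM + 1) 18 were lower and 5 higher, against 8.91% and 36.2%. By DESeq2 20 were lower and 1 higher, against 12.1% and 12.4% of all tested genes. Summed over the 20 enzymes, the level was 1261 to 1285 FPKM in exercise and 1600.2 to 1624 FPKM in sedentary libraries. By FPKM alone, the 20 genes that fell were also those whose exercise libraries all lay below every sedentary library, an order seen in 14.3% of all tested genes. Another 6 genes lay above without overlap, where 36.6% of all tested genes did.

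**Figure D1:**
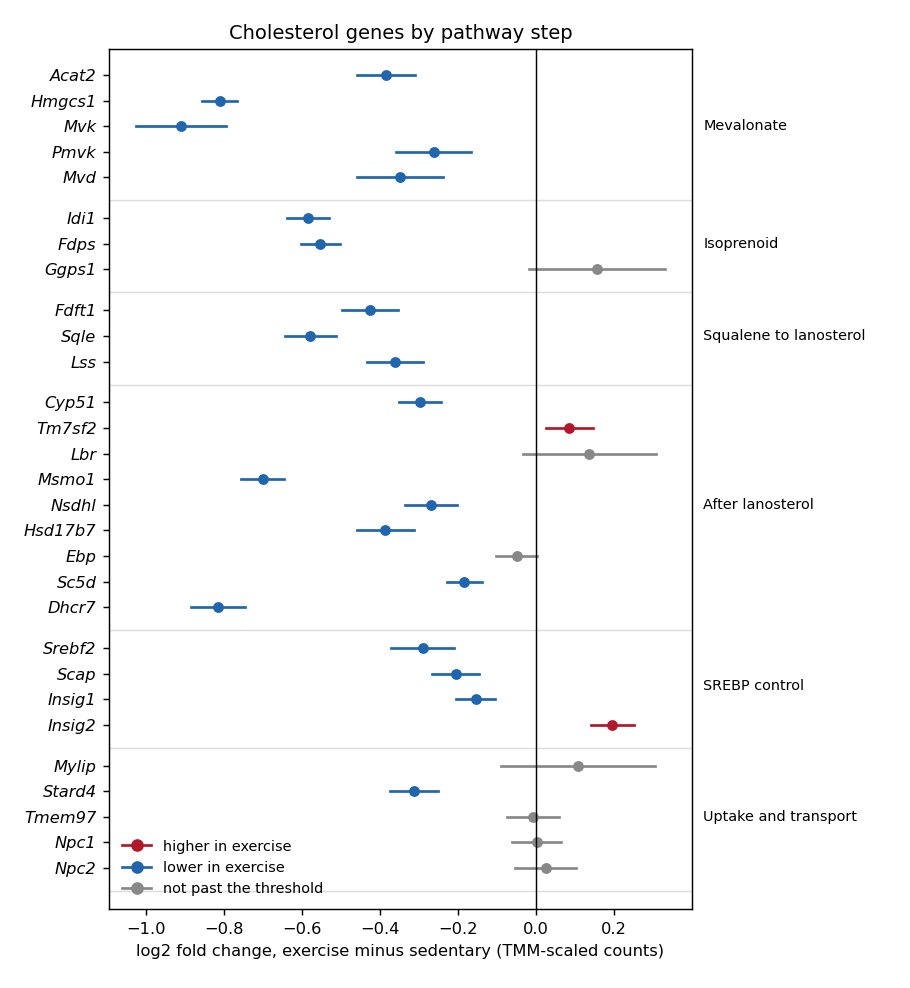
Log2 fold change of each of the 29 genes, exercise minus sedentary, from TMM-scaled counts, grouped by pathway step from top to bottom. Points are edgeR estimates and bars their 95% intervals. Mvk at −0.91 lies farthest left and Insig2 at 0.20 farthest right.

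Mevalonate synthesis and phosphorylation fell throughout, as all 5 genes were lower, at a median log2 fold change of −0.38. Hmgcs1 encodes the synthase that condenses acetyl-CoA with acetoacetyl-CoA (gene ID 208715, chromosome 13, 119690351 to 119708260). It was at 105, 102 and 99.5 FPKM in the exercise libraries, against 169, 172 and 168 FPKM in the sedentary libraries. The groups lay far apart, with no sedentary library under 168 FPKM. Hmgcs1 fell 1.75-fold (log2 fold change −0.81, SE 0.02, edgeR adjusted p = 3.47e-32). Mvk, the mevalonate kinase (gene ID 17855, chromosome 5, 114444264 to 114460591), had 13.1, 12.1 and 12.1 FPKM in exercise, against 23.3, 21.2 and 22.0 FPKM in sedentary libraries. Its fall of 1.88-fold (log2 fold change −0.91, SE 0.06) was the largest among the 29 genes.

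The other mevalonate genes fell by less. Acat2, a cytosolic thiolase that makes acetoacetyl-CoA, averaged 36.5 ± 1.80 FPKM in exercise and 45.3 ± 0.667 FPKM in sedentary libraries (SD, n = 3 each). Its log2 fold change was −0.38. Some Acat2 counts were not whole, so the split of reads with a similar gene may be uncertain. The neighbouring near-identical gene Acat3 was at 198 FPKM in exercise and 182 FPKM in sedentary libraries and did not pass the test (log2 fold change 0.05, edgeR adjusted p = 0.0777). Pmvk, the kinase that adds the next phosphate to mevalonate phosphate, fell by 0.26 on the log2 scale. Mvd, the decarboxylase that makes isopentenyl diphosphate, fell 1.27-fold.

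Isoprenoid enzymes on the way to squalene fell, while the gene for the branch to geranylgeranyl diphosphate did not pass. Fdps, the farnesyl diphosphate synthase (gene ID 110196, chromosome 3, 89093588 to 89101967), was the most abundant of the 29 genes by mean FPKM. It stood at 218, 214 and 208 FPKM in exercise, against 302, 303 and 295 FPKM in sedentary libraries, and fell 1.47-fold (log2 fold change −0.55, SE 0.03). Of its annotated exonic bases, 77.4% also belong to another gene model on the same strand in GENCODE M21, so reads there could carry more than 1 name. That gene model had no row in the deposited expression table. Idi1, the isomerase of isopentenyl diphosphate, had 77.9, 77.5 and 73.6 FPKM in exercise, against 105, 112 and 109 FPKM in sedentary libraries. Its log2 fold change was −0.58, on counts that were not whole in every library. Ggps1, which extends farnesyl diphosphate for the prenylation of proteins, was the least abundant gene by mean FPKM. It had 2.40, 2.74 and 3.00 FPKM in exercise, against 2.22, 2.44 and 2.32 FPKM in sedentary libraries. The groups overlapped and its log2 fold change of 0.16 (SE 0.09) did not pass.

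Squalene and lanosterol synthesis fell as well, as all 3 genes were lower, at a median log2 fold change of −0.43. Sqle, the epoxidase that puts oxygen on squalene (gene ID 20775, chromosome 15, 59315092 to 59331193), was at 32.3, 32.1 and 31.2 FPKM in exercise, against 45.1, 46.2 and 44.2 FPKM in sedentary libraries. It fell 1.49-fold (log2 fold change −0.58, SE 0.03). Fdft1, the squalene synthase, had 48.6, 51.2 and 51.6 FPKM in exercise, against 68.2, 68.7 and 58.9 FPKM in sedentary libraries. The third sedentary library lay well under the other two and still above every exercise library. Fdft1 fell 1.34-fold, with a log2 fold change of −0.50 to −0.39 when 1 library was left out. Its exons share 20.9% of their bases with those of Ctsb on the opposite strand. Ctsb, a lysosomal protease, was at 352 FPKM in exercise and 329 FPKM in sedentary libraries and did not pass the test (log2 fold change 0.0091). Smaller overlaps with other gene models covered 18.6% of the exonic bases of Scap, 16% of Hmgcs1, 10.7% of Idi1 and 8.16% of Lss. Those other gene models had no row in the deposited expression table. Whether counting used strand is not stated, so the source of reads in these stretches is uncertain.

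Lss, the synthase that closes squalene epoxide into lanosterol, fell 1.28-fold by counts (log2 fold change −0.36, SE 0.04). It had 1180, 1146 and 1107 counts in exercise, against 1422, 1420 and 1396 counts in sedentary libraries. By FPKM it stood at 14.2, 14.1 and 15.0 in exercise, against 19.8, 19.2 and 20.6 in sedentary libraries. FPKM and counts moved by different factors in this gene, with log2 ratios of group means of −0.46 for FPKM and −0.30 for counts. The length behind each FPKM, read as library-scaled counts over FPKM, was 4.61, 4.52 and 4.09 kilobases in exercise, against 3.90, 4.08 and 3.71 kilobases in sedentary libraries. The exercise lengths were the longer ones, though the groups nearly met at 4.09 and 4.08 kilobases. The log2 ratio of these lengths was 0.18 for Lss, and between −0.01 and 0.03 for the other 28 genes. Among 10261 tested genes with reads in every library, 1.66% had a ratio beyond 0.1 in either direction.

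**Figure D2:**
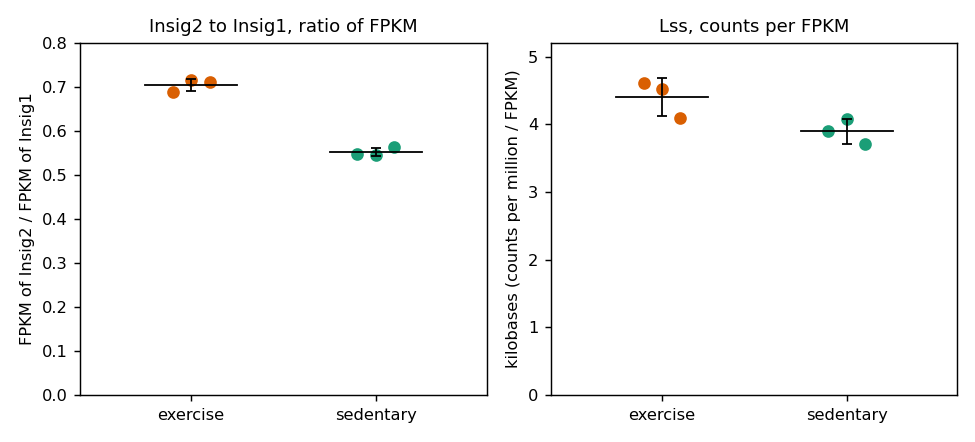
Left, the ratio of Insig2 to Insig1 FPKM in each library; right, the length behind the Lss FPKM in kilobases, library-scaled counts divided by FPKM. Points are libraries, lines are means and bars are SD (n = 3 per group), and the exercise means lie above the sedentary means in both panels.

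Steps after lanosterol were mixed, since 6 of 9 genes fell, 1 rose and 2 missed the threshold, at a median log2 fold change of −0.27. Dhcr7, the reductase of the last step of one branch (gene ID 13360, chromosome 7, 143823167 to 143848410), was at 30.4, 29.8 and 29.7 FPKM in exercise, against 48.2, 50.9 and 51.5 FPKM in sedentary libraries. It fell 1.76-fold (log2 fold change −0.82, SE 0.04, edgeR adjusted p = 8.39e-25). Msmo1, an oxidase that starts the removal of methyl groups (gene ID 66234, chromosome 8, 64718123 to 64733578), had 88.6, 89.6 and 85.7 FPKM in exercise, against 133, 138 and 136 FPKM in sedentary libraries. Both genes had exercise libraries that lay well below all sedentary libraries, and Msmo1 fell 1.62-fold.

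Among the other genes of these steps, Hsd17b7, which reduces a ketone left by demethylation, fell 1.31-fold. Cyp51, the cytochrome P450 that demethylates lanosterol, fell 1.23-fold, and the dehydrogenase gene Nsdhl fell 1.21-fold. Sc5d, a desaturase, averaged 192 ± 2.04 FPKM in exercise and 211 ± 4.84 FPKM in sedentary libraries (SD, n = 3 each) and had the smallest fall of the synthesis genes (log2 fold change −0.18). Ebp, a sterol isomerase, did not pass (log2 fold change −0.05) and its groups overlapped, at 147 to 154 FPKM in exercise and 148 to 151 FPKM in sedentary libraries.

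Tm7sf2 and Lbr both encode sterol reductases that can act on the product of CYP51, and neither was called lower. Tm7sf2 had 113, 108 and 113 FPKM in exercise, against 102, 98.3 and 99.4 FPKM in sedentary libraries. The groups did not overlap, with exercise above, as in 36.6% of all tested genes by FPKM. The rise of Tm7sf2 was small (1.06-fold, log2 fold change 0.09, SE 0.03, edgeR adjusted p = 0.0248). That call was lost without exercise replicate 1, exercise replicate 3, sedentary replicate 2 or sedentary replicate 3, with adjusted p of 0.0775, 0.0957, 0.0926 and 0.0731, by DESeq2 (adjusted p = 0.0977) and with quantile normalization (adjusted p = 0.0559). Lbr, which also anchors chromatin at the nuclear lamina, was at 3.58 to 4.03 FPKM in exercise and 2.98 to 3.63 FPKM in sedentary libraries, and its log2 fold change of 0.14 (SE 0.09) missed the threshold.

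**Figure D3:**
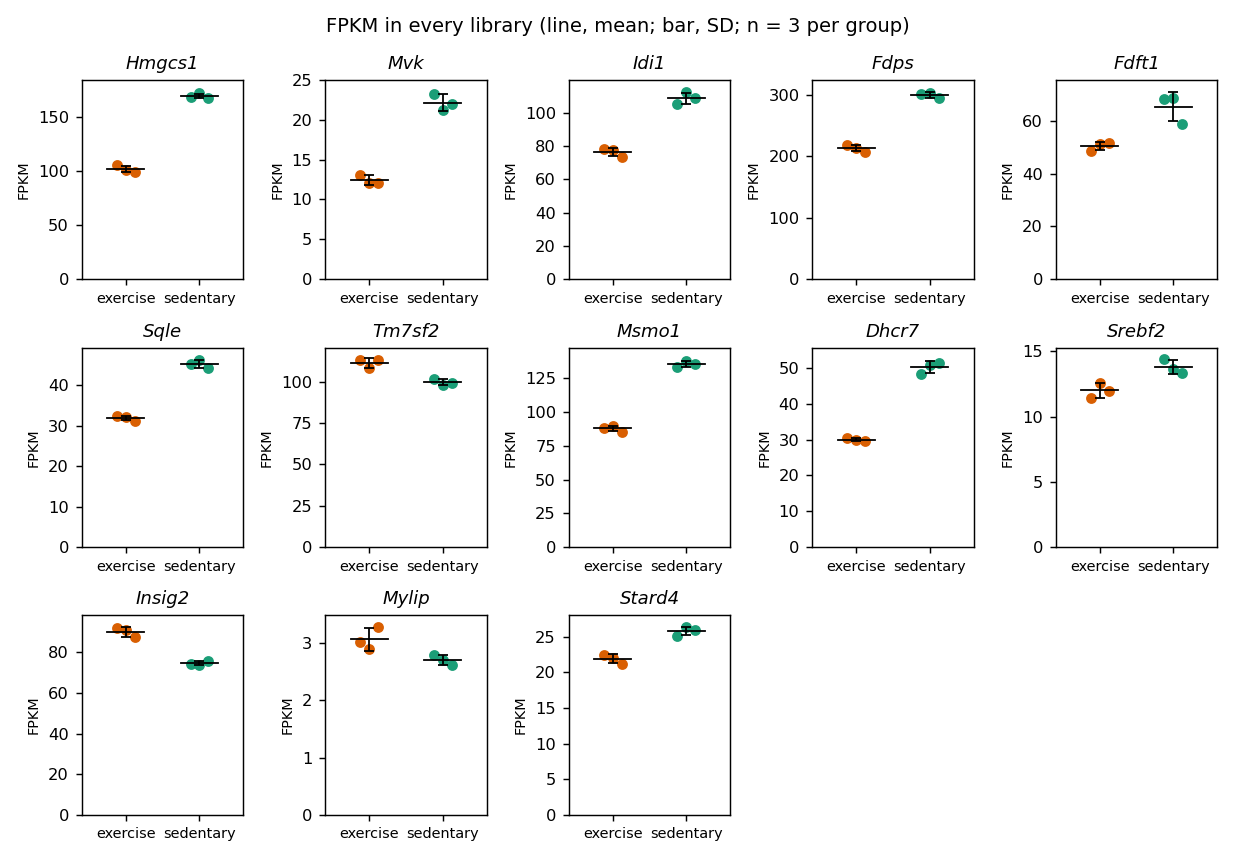
FPKM in every library for the 2 genes with the smallest p of each step and for the genes that rose, in pathway order. Points are libraries, lines are means and bars are SD (n = 3 per group); the exercise points lie below the sedentary points in all panels but Tm7sf2, Insig2 and Mylip.

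Genes of SREBP control moved in opposite directions. Srebf2, the gene of SREBP-2 (gene ID 20788, chromosome 15, 82147269 to 82205379), was at 11.4, 12.6 and 12.0 FPKM in exercise, against 14.4, 13.6 and 13.4 FPKM in sedentary libraries. It fell 1.22-fold (log2 fold change −0.29, SE 0.04, edgeR adjusted p = 1.06e-07). Scap, the escort that carries SREBP to the Golgi, averaged 33.1 ± 0.520 FPKM in exercise and 36.2 ± 1.42 FPKM in sedentary libraries (SD, n = 3 each) and fell 1.15-fold. Scap did not pass by limma on log2(TPM + 1), with a log2 fold change of −0.09 (adjusted p = 0.0674).

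Insig2, an anchor of SREBP in the endoplasmic reticulum (gene ID 72999, chromosome 1, 121304353 to 121332662), was higher in exercise. It had 92.0, 91.2 and 87.5 FPKM in exercise, against 74.5, 73.8 and 75.9 FPKM in sedentary libraries. All exercise libraries were above all sedentary libraries, an order that 36.6% of all tested genes showed by FPKM. Insig2 rose 1.15-fold (log2 fold change 0.20, SE 0.03, edgeR adjusted p = 1.01e-07). Its paralog Insig1, whose transcription is itself raised by SREBP, had 133, 127 and 123 FPKM in exercise, against 136, 135 and 135 FPKM in sedentary libraries. Insig1 fell 1.11-fold (log2 fold change −0.15, SE 0.03). The Insig1 call was lost by limma on log2(FPKM + 1), where the log2 fold change was −0.08 (adjusted p = 0.0746), and on log2(TPM + 1), where it was −0.05 (adjusted p = 0.26). A ratio within a library does not depend on the scaling between libraries. The ratio of Insig2 to Insig1 FPKM was 0.690, 0.716 and 0.712 in exercise, against 0.549, 0.546 and 0.564 in sedentary libraries. The ratio differed by 0.35 on the log2 scale between the groups. In every exercise library Insig2 FPKM lay above and Insig1 FPKM below all sedentary libraries, so the ratios could not overlap. A test of the ratio would therefore add nothing and is not given.

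Among the 5 uptake and transport genes, 1 fell and none rose, and the median log2 fold change was 0.0018. Stard4, a soluble sterol carrier (gene ID 170459, chromosome 18, 33199138 to 33213862), was the one that fell. It had 22.4, 22.1 and 21.2 FPKM in exercise, against 25.1, 26.3 and 25.9 FPKM in sedentary libraries, and fell 1.24-fold (log2 fold change −0.31, SE 0.03). Mylip, a ubiquitin ligase that marks lipoprotein receptors for breakdown, was at 3.02, 2.90 and 3.29 FPKM in exercise, against 2.79, 2.70 and 2.62 FPKM in sedentary libraries. Its libraries did not overlap, with exercise above, as in 36.6% of all tested genes by FPKM. The log2 fold change of Mylip, 0.11 (SE 0.10), did not pass, on 128 to 159 counts per library.

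Npc1 and Npc2, which pass cholesterol out of lysosomes, did not pass the test, with log2 fold changes of 0.0018 (95% interval −0.06 to 0.06) and 0.02 (−0.05 to 0.10). By FPKM neither overlapped between groups, with Npc1 at 25.7 to 26.2 in exercise and 23.4 to 25.5 in sedentary libraries, and Npc2 at 22.3 to 23.1 in exercise and 19.8 to 22.0 in sedentary libraries. Such an order, with exercise above, was seen in 36.6% of all tested genes. Tmem97, a membrane protein that interacts with NPC1, did not pass either, at 85.3 to 89.2 FPKM in exercise and 82.2 to 84.2 FPKM in sedentary libraries (log2 fold change −0.0066). The sign of the estimates of Npc1 and Tmem97 depended on the scaling. Without TMM, edgeR called Npc1 and Npc2 higher, with adjusted p of 0.0385 and 0.0336, and likewise Ggps1 (0.0267) and Lbr (0.0397). In that fit 34.4% of all tested genes were called higher, at a median log2 fold change of 0.077. On log2(TPM + 1), limma called Tmem97, Npc1 and Npc2 higher, so that the 5 uptake and transport genes held 3 higher and 1 lower, at a median of 0.11. By that fit 36.2% of all tested genes were called higher and 8.91% lower, at a median of 0.096.

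Fewer calls held under stricter tests. Against a 1.2-fold change, 11 genes were called lower, where 4.03% of all tested genes were. They were Hmgcs1, Mvk, Acat2, Idi1, Fdps, Fdft1, Sqle, Lss, Msmo1, Hsd17b7 and Dhcr7, all of them synthesis enzymes. With 1 summed library per group and an assumed biological variation of 0.1, in place of the 1.84% estimated from these libraries, 4 genes were called lower, where 1.23% of all tested genes were. These were Hmgcs1 (adjusted p = 0.00714), Mvk (0.00207), Msmo1 (0.0405) and Dhcr7 (0.00741). At an assumed variation of 0.2 none of the 29 was called by that edgeR exact test, where 0.175% of all tested genes were called lower.

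**Figure D4:**
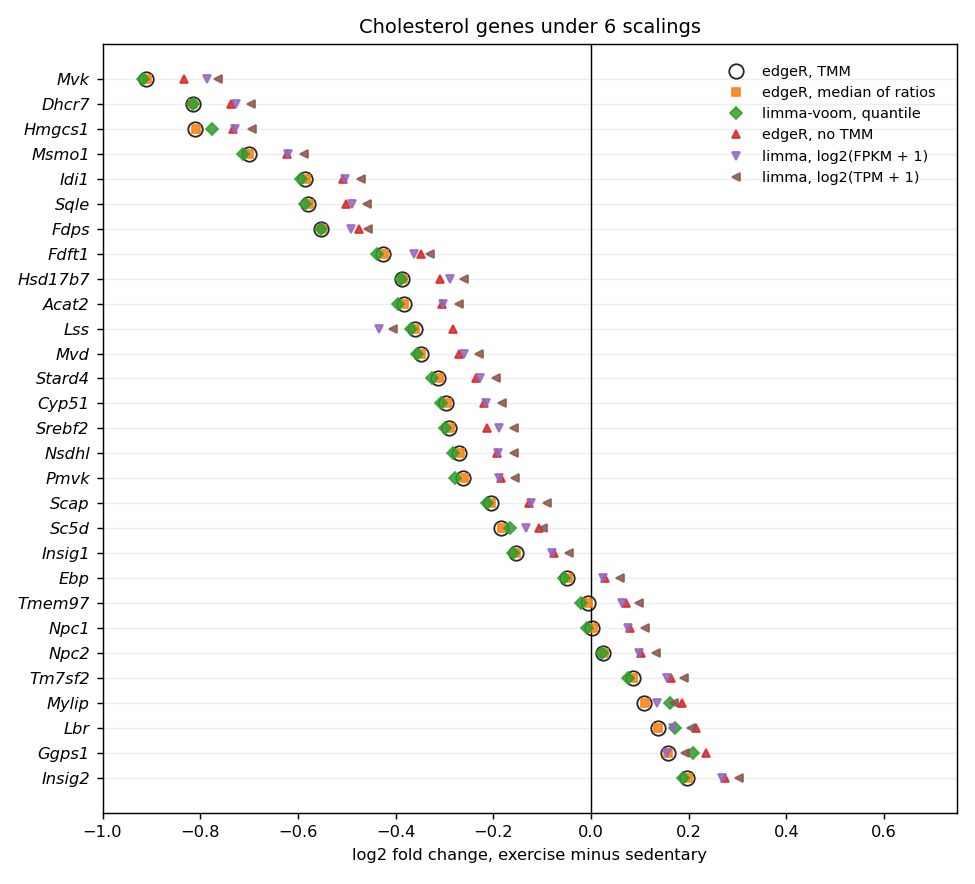
Log2 fold change of each of the 29 genes, exercise minus sedentary, under 6 ways of scaling and testing, ordered by the edgeR value with TMM. The fits without TMM and on FPKM or TPM lie to the right of the others for most genes, Ebp, Tmem97 and Npc1 cross 0 between scalings, and the 20 genes called lower lie left of 0 under all 6.

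Lists of genes next to the pathway had medians between −0.06 and 0.04 after TMM scaling, and between 0.02 and 0.12 without it. Over all tested genes the median was −0.00062 after TMM scaling and 0.077 without it. Of all tested genes, 19.1% rose and 19.0% fell after TMM scaling, while without it 34.4% were called higher and 11.7% lower. Of 14 tested genes that process SREBP, degrade its partners or bind beside it, 2 rose, 2 fell and 10 did not pass, with a median log2 fold change of 0.04. Without TMM 6 were called higher and none lower, at a median of 0.12. Rnf145, a ubiquitin ligase known to act on SCAP in mouse liver, averaged 8.12 ± 0.157 FPKM in exercise and 6.11 ± 0.362 FPKM in sedentary libraries (SD, n = 3 each), and its log2 fold change was 0.34 (edgeR adjusted p = 5.08e-06). Erlin1 and Erlin2, proteins of sterol-linked degradation in the endoplasmic reticulum, fell by 0.17 each on the log2 scale, and neither passed without TMM (adjusted p = 0.0748 and 0.154). Sp1, the gene of the GC box factor, rose (log2 fold change 0.13), and did not pass with quantile normalization (adjusted p = 0.0528).

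Por, the reductase that feeds electrons to CYP51 and squalene epoxidase, rose (log2 fold change 0.13), while the 4 other genes of electron supply did not pass (median of the 5 genes 0.04). Without TMM 4 of the 5 were called higher, at a median of 0.11. Of all tested genes 34.4% were then called higher and 11.7% lower, at a median of 0.077. The prenyl branch, which uses the same isoprenoids, held 3 higher and 3 lower genes among 14, at a median of −0.06. That split is near the 19.1% higher and 19.0% lower of all tested genes. Without TMM it held 4 higher and none lower, and the median turned to 0.02. Icmt, which methylates prenylated proteins, rose by 0.21 on the log2 scale. Rabggtb, a subunit of a Rab prenyl transferase, and Nus1, of dolichol synthesis, rose by 0.18 and 0.14. Rabggta, the other subunit of that transferase, was called lower (log2 fold change −0.15, edgeR adjusted p = 0.034), though its FPKM overlapped between groups and it did not pass without TMM (adjusted p = 0.309). Zmpste24, a protease of prenylated proteins, fell by 0.15, and did not pass without TMM (adjusted p = 0.155).

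Genes of cholesterol esterification, lipoprotein handling and efflux held 4 higher and 2 lower genes among the 13 tested, at a median of 0.02. Of all tested genes, 19.1% were called higher and 19.0% lower. Without TMM it was 8 higher and none lower, at a median of 0.10. Of all tested genes 34.4% were then called higher and 11.7% lower, at a median of 0.077. Pltp, the phospholipid transfer protein, averaged 36.1 ± 1.6 FPKM in exercise and 23.9 ± 0.471 FPKM in sedentary libraries (SD, n = 3 each) and rose 1.43-fold. Lipa, the lysosomal acid lipase, rose by 0.11 on the log2 scale. Abcg8, of the sterol export pump, and Nr1h3, the gene of the sterol receptor LXR-alpha, fell by 0.11 and 0.13, and neither passed without TMM (edgeR adjusted p = 0.402 and 0.287). Abcg5, the partner of Abcg8 in the pump, was called in the other direction, with a log2 fold change of 0.13 (edgeR adjusted p = 0.00863). Abcg5 did not pass with quantile normalization (limma adjusted p = 0.056). Genes of sterol transport within the cell held 3 higher and 2 lower genes among 13, at a median of −0.0076. Without TMM it was 5 higher and none lower, and the median turned to 0.07. Osbp, an oxysterol-binding exchanger, rose by 0.37 on the log2 scale, and Scarb2, a lysosomal membrane protein, rose by 0.20. Vapa, which anchors OSBP at the endoplasmic reticulum, rose by 0.13, and Gramd1c fell by 0.17, with an adjusted p of 0.101 without TMM.

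Genes of fatty acid synthesis and nearby lipid metabolism, many of them driven by the related factor SREBP-1, moved both ways. Of 16 tested genes 6 rose and 7 fell, at a median of 0.0080, where 19.1% and 19.0% of all tested genes did. They ranged from Aacs, the gene of a synthetase of acetoacetyl-CoA and not of fatty acids, at −1.09 to Scd1 at 0.77. Thrsp was at −0.69 and Me1 at 0.65, all on the log2 scale. Without TMM 8 were called higher and 3 lower, at a median of 0.09, against 34.4% and 11.7% of all tested genes. Acly, Gpam, Fads1 and Srebf1 were then not past the threshold, and their signs differed between the 6 scalings.

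**Figure D5:**
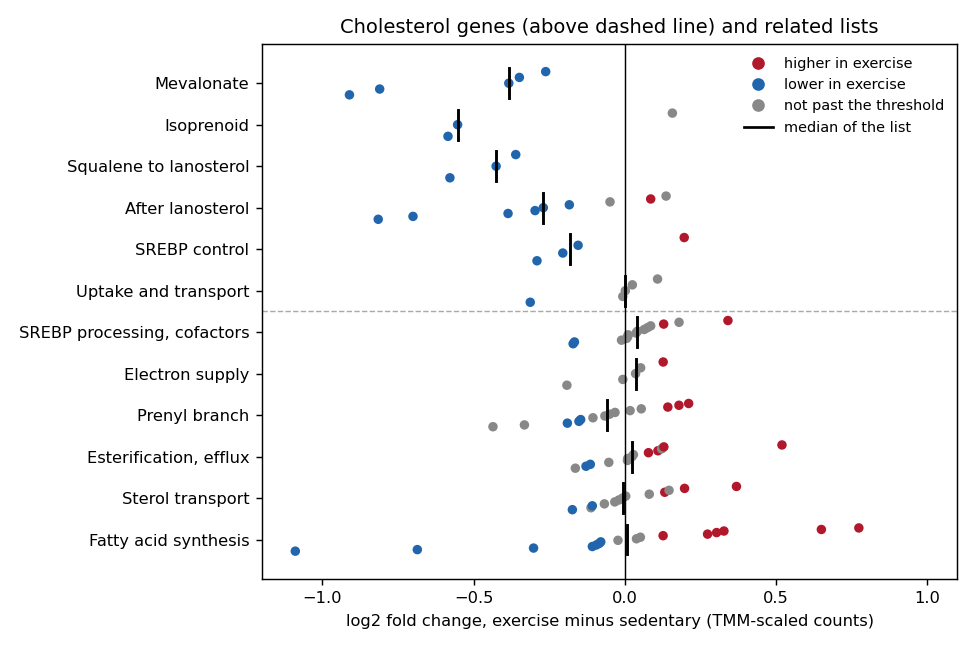
Log2 fold changes, exercise minus sedentary, of the tested genes of each step (above the dashed line) and of the related lists (below it). Points are genes, coloured by the edgeR call, and black lines are medians, which lie between −0.55 and 0.0018 above the dashed line and between −0.06 and 0.04 below it, all on TMM-scaled counts.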

How the data were processed

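Liver RNA of 3 exercise and 3 sedentary mice was read in pairs on a DNBseq instrument, and poor reads were removed before counting, per the labels' protocols. The submitters' processing notes name the build GRCm38.p6 and the tools cutadapt, featureCounts and MultiQC. No source used here gives the aligner, annotation or strand setting. The deposited table held estimated read counts, FPKM and TPM per gene, per the file headers. The authors' FPKM and TPM values were used as given, and the deposited estimated counts, not whole for 1165 genes, were rounded. Columns were matched to samples through the labels' descriptions, and the 6 columns of averages were not used.

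The main test was edgeR 4.0.16 in R 4.3.3 (TMM, quasi-likelihood F test, two-sided, no covariates), with Benjamini-Hochberg adjustment over 10266 genes and a threshold of 0.05. Standard errors are the log2 fold change over the square root of F, and folds are from scaled counts. Alternatives were DESeq2 1.42.0, limma 3.58.1 on log2(FPKM + 1), log2(FPKM + 0.1) and log2(TPM + 1), other scalings and filters, a test against a 1.2-fold change, each library left out, a replicate block, and 1 summed library per group. The genes and lists were chosen with earlier results of these data known, so no test over a list was made. All 29 genes are named, values in every library are given for the 2 genes with the smallest p in each step and those that rose, and up to 4 genes of each other list are named. The values per library of Lss, Ggps1 and Insig1, and the genes Acat3, Ctsb, Spp1, Abcg5, Rabggta, Acly, Gpam, Fads1 and Srebf1, were added after they were seen. The related list of SREBP processing had no row under the symbol Spring1. Precision is limited by the number of libraries and, for the rarest genes, by counts under 250 per library.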

Additional observations from a re-analysis of the deposited data

How the results depend on the processing

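The count of 20 genes lower held with each library left out, with no filter, at a mean FPKM of at least 5, without TMM, with median-of-ratios factors, with quantile normalization and by DESeq2, and was 19 and 18 by limma on FPKM and TPM. It was 11 against a 1.2-fold change, and 4 and 0 with summed libraries at an assumed variation of 0.1 and 0.2. The count higher was 6 without TMM, 5 on log2(TPM + 1), 1 by DESeq2, 1 with quantile normalization, 0 under the 3 stricter tests and 1 to 2 with 1 library left out. Genes called in all were 2512 by DESeq2, 653 against a 1.2-fold change, 176 and 23 with summed libraries, and 3402 to 3491 with 1 library left out. The median log2 fold change of the 29 genes was −0.21 without TMM, −0.19 on log2(FPKM + 1), −0.20 on log2(FPKM + 0.1), −0.16 on log2(TPM + 1), and −0.31 to −0.27 with 1 library left out. Values near 0 changed sign, and the cause was not tested beyond the change of scale. The median of the uptake and transport genes was −0.0093 with quantile normalization, −0.0089 at a mean FPKM of at least 5, −0.00012 with summed libraries at either variation, and −0.013 to 0.028 with 1 library left out. It moved further upward to 0.079 without TMM, 0.075 on log2(FPKM + 1), 0.078 on log2(FPKM + 0.1) and 0.11 on log2(TPM + 1). The median over all tested genes in the same settings, in that order, was 0.077, 0.063, 0.071 and 0.096. Ebp was at 0.029 without TMM, 0.024 on log2(FPKM + 1), 0.024 on log2(FPKM + 0.1) and 0.058 on log2(TPM + 1). Tmem97 was at 0.071 without TMM, 0.0021 without a filter, 0.064 on log2(FPKM + 1), 0.065 on log2(FPKM + 0.1), 0.099 on log2(TPM + 1), and −0.025 to 0.0038 with 1 library left out. Npc1 was at −0.0093 with quantile normalization, −0.0047 at a mean FPKM of at least 5, −0.00012 with summed libraries at either variation, and −0.033 to 0.028 with 1 library left out. Npc2 was at −0.026 to 0.052 with 1 library left out.

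Both groups carry replicate numbers 1 to 3 in the titles. Deviations of same-numbered libraries correlated at −0.03, −0.02 and −0.03, and no exercise library correlated best with its own number. Since libraries of a group differed by little more than counting noise, these correlations cannot show whether the numbers pair the libraries. With the replicate block 3846 genes were called, 20 of the 29 genes lower and 2 higher, with a median of −0.29. Depth limits Ggps1, Lbr and Mylip, with 128 to 236 counts per library.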
